A study of Mus musculus with 4 samples.

Results

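The 42 genes described here encode the machinery with which mitochondria burn fuel: subunits of respiratory complexes I to V, cytochrome c, enzymes of the tricarboxylic acid (TCA) cycle and subunits of the pyruvate dehydrogenase complex. They were found by gene symbol, or by gene ID where the deposited annotation writes an older symbol, as for Atp5d. They comprise 9 genes of complex I, 4 of complex II, 5 of complex III with cytochrome c, 7 of complex IV, 5 of complex V, 9 of the TCA cycle and 3 of pyruvate dehydrogenase. All 42 had a value on each of the 4 arrays, through 85 probe sets, among 13108 genes and 22626 probe sets in all. A probe set is a group of short DNA probes that reads 1 transcript or a few related ones, and its intensity is the brightness deposited by the authors on a linear scale.

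Affymetrix arrays measured mouse RNA, with 1 array for each of 4 groups. In the cell experiment, primary adipocytes grown from visceral fat received 10 µM forskolin, which activates adenylyl cyclase and so raises cAMP, or DMSO as vehicle, and both were collected after 2 h. In the diet experiment, epididymal fat pads were taken whole from mice that had eaten a 60% high fat diet during 12 weeks, or from control animals that ate chow. The authors' deposited table heads both fat columns WT, the usual mark of wild type. For strain, sex, age and the number of cultures or mice behind an array, the sources used here give nothing. With 1 array per group no difference has a replicate check, so no p-value and no replicate error were computed. This number of arrays sets the precision. The gap between probe sets of the same gene, and the bounds on each fold in the authors' deposited table, are gauges within a pair of arrays. Both leave out variation between cultures and between mice. Sets of a gene may also read different transcripts, so their gap need not be measurement error alone.

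Pyruvate dehydrogenase turns pyruvate into acetyl-CoA, and the TCA cycle oxidises it while making NADH and succinate. Complexes I and II pass their electrons to ubiquinone, complex III and cytochrome c hand them to complex IV, which reduces oxygen, and complex V makes ATP from the proton gradient. White adipocytes also draw on the cycle for citrate, a source of carbon for fatty acid synthesis, whereas in brown and beige adipocytes the uncoupling protein UCP1 lets the gradient run down as heat.

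The members lay in the brighter range of every array. Through the probe set of highest mean level for each gene, their intensities spanned 920.2 to 10824 with forskolin and 922.8 to 10940 with vehicle. They spanned 1212 to 9812 under the high fat diet and 1355 to 10161 under chow. Other sets of some members were dim, such as 1 for Cox7c at 9.64 with forskolin. The array medians over all probe sets were 237.3 with forskolin, 236.5 with vehicle, 314.4 under the high fat diet and 265.7 under chow. Over all genes, each read through 1 set, the log2 medians were 8.26 with forskolin and 8.26 with vehicle. They were 8.72 under the high fat diet and 8.51 under chow. All 42 members passed the level filter used for counts over all genes, for which a gene had to reach the median over all genes on whichever array of a pair was brighter for it. Markers of adipocytes summed to 60217 with forskolin, 59345 with vehicle, 60683 under the high fat diet and 72238 under chow (9 of 10 listed genes measured, none at the floor). Single markers differed more than these sums: 1 was at least 1.5-fold higher and 3 lower under the high fat diet than under chow, and likewise 1 higher and 3 lower in vehicle cultures than in chow fat.

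**Figure D1:**
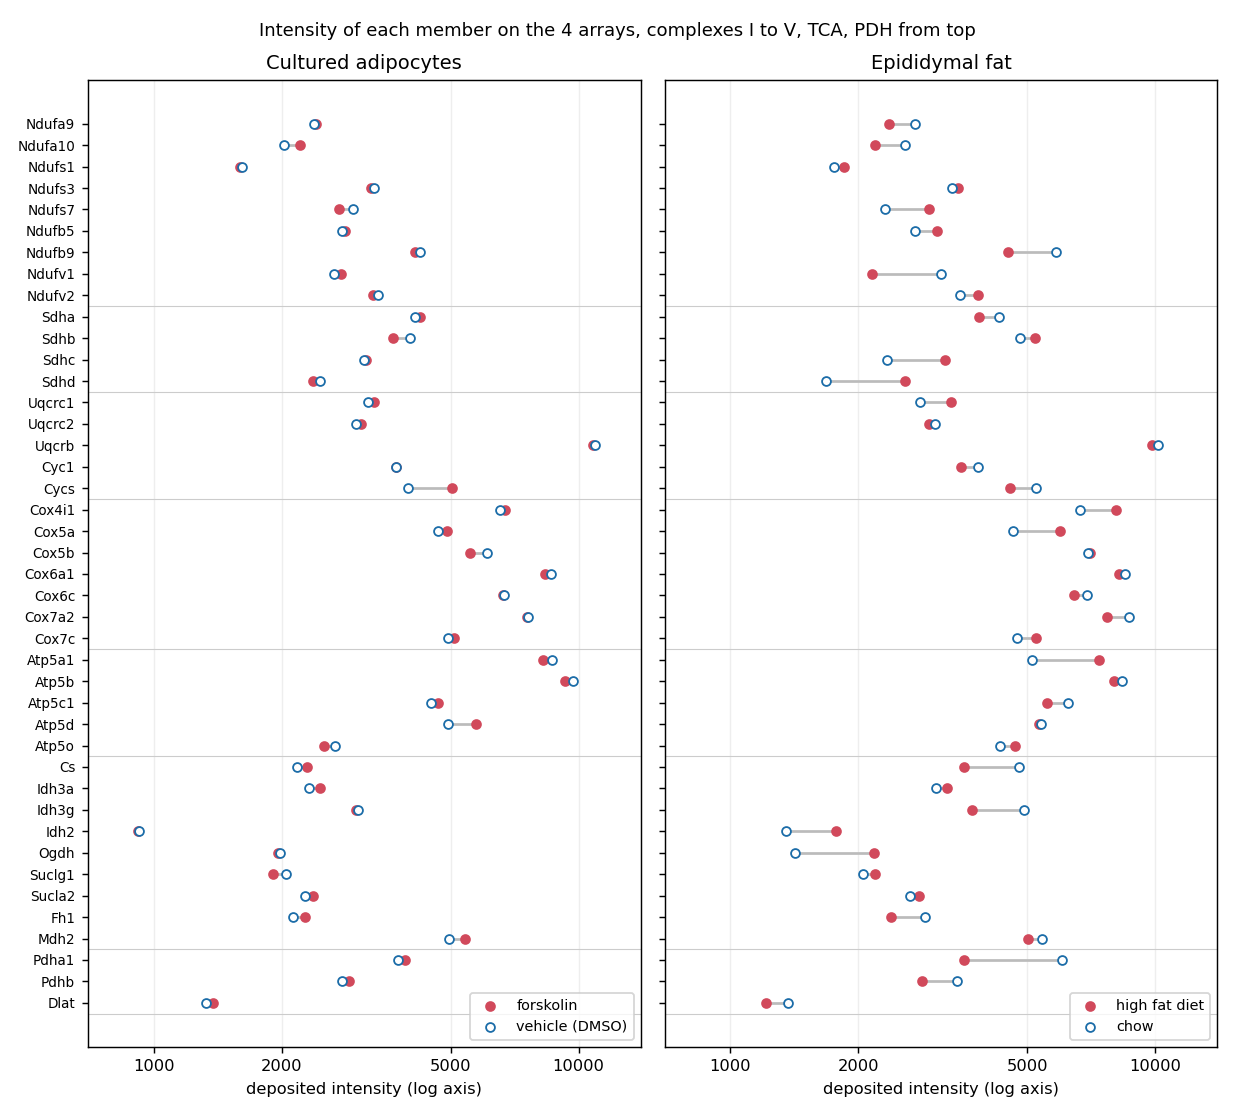
Deposited intensity of each of the 42 members (rows, complex I at the top, pyruvate dehydrogenase at the bottom) on a log axis, cultured adipocytes at left (filled forskolin, open vehicle) and epididymal fat at right (filled high fat diet, open chow). Pairs nearly coincide in the cultures and stand further apart in fat, and brightness can be compared within a row, not between rows.

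The first comparison asked how adipocytes respond to a 2 h rise in cAMP. All 42 members were within 1.5-fold of vehicle after forskolin, and 41 were within 0.32 on the log2 scale, a ratio of 5 to 4. Of 6704 genes that passed the level filter, 3.01% differed at least 1.5-fold in either direction. Within 0.32 were 97.6% of the members and 90.8% of these filtered genes. Among genes at or above the 75th percentile of level, 93.9% were. The median log2 difference of the members was 0.02 (range -0.14 to 0.34, SD 0.09 across genes), beside -0.02 for all filtered genes (SD 0.30). The group medians were -0.01 for complex I, -0.02 for complex II, 0.05 for complex III with cytochrome c, -0.01 for complex IV, -0.06 for complex V, 0.06 for the TCA cycle and 0.05 for pyruvate dehydrogenase.

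The member with the largest difference was Cycs, which encodes the cytochrome c that shuttles electrons between complexes III and IV. Its intensity was 5026 with forskolin and 3958 with vehicle, 1.27-fold higher with forskolin. It was the 1 member higher by more than 0.32 on the log2 scale, where 5.04% of filtered genes were. The other 2 Cycs probe sets also read higher, with 5085 with forskolin and 4233 with vehicle for one, and 2028 with forskolin and 1798 with vehicle for the other. Their log2 differences of 0.26 and 0.17 were below the 0.34 of the brightest probe set. In the authors' deposited table the fold for Cycs was 1.27 with bounds of 1.22 and 1.33.

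Atp5d, the delta subunit in the central stalk of ATP synthase, followed with 5735 with forskolin and 4924 with vehicle. Its difference was 0.22, and its other probe set gave 0.28 (4486 with forskolin, 3698 with vehicle). Both probe sets carry a suffix (_s_at) for probes that can read several transcripts. The other complex V members went the other way or differed little: Atp5b, the catalytic beta subunit, read 9303 with forskolin and 9700 with vehicle.

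Beyond Cycs and Atp5d the differences were 0.14 or less in size through the probe set used for each gene. Other bright sets reached 0.26 for Cox6c (2887 with forskolin and 2412 with vehicle), 0.21 for Sdhd and 0.20 for Uqcrb, where the sets used gave -0.01, -0.05 and -0.02 in that order. Cox5b, a structural subunit of complex IV, read 5541 with forskolin and 6094 with vehicle (-0.14). Sdhb, the iron-sulphur subunit of complex II, read 3658 with forskolin and 4008 with vehicle (-0.13). Ndufs7, an iron-sulphur subunit of complex I, read 2732 with forskolin and 2950 with vehicle (-0.11). These 3 genes, from 3 different complexes, were lower with forskolin by at most 1.1-fold. Suclg1, the alpha subunit of succinyl-CoA ligase in the TCA cycle, read 1904 with forskolin and 2043 with vehicle (-0.10). Among those higher, Ndufa10, an accessory subunit of complex I, read 2204 with forskolin and 2022 with vehicle (0.12). Mdh2, mitochondrial malate dehydrogenase, read 5393 with forskolin and 4953 with vehicle (0.12), while its second bright set read 5407 with forskolin and 5358 with vehicle (0.01). By the bounds in the authors' deposited table, which lie on either side of each fold, 4 members were higher (Cycs, Atp5d, Ndufa10 and Mdh2) and 1 was lower (Ndufs7) with both bounds beyond 1. Among filtered genes in that table, 12.8% were higher and 15.9% lower by the same measure, and the sources used here do not give the confidence level.

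cAMP acts on many promoters through CREB, which binds the cAMP response element (CRE), and the authors' deposited table sorts genes by a predicted CRE class. In it, 4 members were classed as having a CRE with a TATA box (Cycs, Atp5d, Ndufv1 and Cox4i1), 8 as having a CRE without one and 26 as others, and 4 had no class. The 8 genes of the CRE_NoTATA class are 19% of the members, beside 17.2% of the filtered genes. The 4 CRE_TATA genes are 9.52% of the members, beside 9.44% of the filtered genes. Forskolin differences of the CRE_TATA members ran from 0.04 to 0.34 with a median of 0.14, and they include both of the highest members. The median was 0.04 for CRE_NoTATA members, -0.01 for others and 0.01 for members without a class. Over all filtered genes, the CRE_TATA class had a median of -0.01, and 9.79% of it was higher with forskolin by at least 0.32 on the log2 scale.

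**Figure D2:**
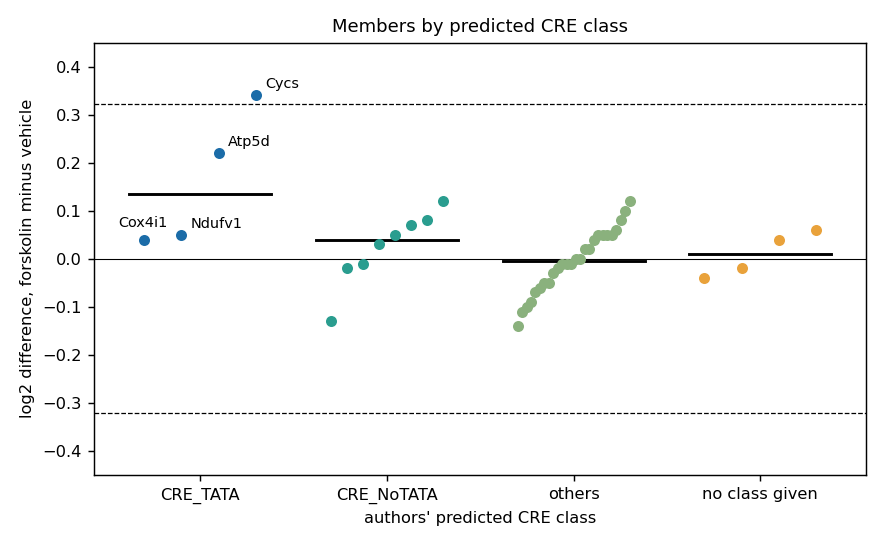
Log2 difference, forskolin minus vehicle, of each member (points) by the authors' predicted CRE class, with the class median as a bar and dashed lines at 0.32 and -0.32. Cycs at 0.34 lies above the upper line, Atp5d is at 0.22, and all other members lie between -0.14 and 0.12.

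The promoters of Cycs and Atp5d are shown because these genes had the highest forskolin differences. RefSeq (GRCm38.p6) gives the 250 bases before the start of Cycs as chr6:50566570-50566819 on the minus strand, and those of Atp5d as chr10:80142025-80142274 on the plus strand. Capitals mark 3 motifs that were searched for on both strands: TGACGTCA, the full palindromic CRE, TTACGTCA (TGACGTAA on the other strand), a CRE variant, and GCATGCGC (GCGCATGC on the other strand), a core of the motif of NRF-1, a regulator of respiratory genes.
Cycs: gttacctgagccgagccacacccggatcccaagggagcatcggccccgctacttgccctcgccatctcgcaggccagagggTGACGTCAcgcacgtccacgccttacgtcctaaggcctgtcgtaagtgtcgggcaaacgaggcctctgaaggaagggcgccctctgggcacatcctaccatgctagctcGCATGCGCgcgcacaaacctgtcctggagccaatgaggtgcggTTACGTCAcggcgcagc
Atp5d: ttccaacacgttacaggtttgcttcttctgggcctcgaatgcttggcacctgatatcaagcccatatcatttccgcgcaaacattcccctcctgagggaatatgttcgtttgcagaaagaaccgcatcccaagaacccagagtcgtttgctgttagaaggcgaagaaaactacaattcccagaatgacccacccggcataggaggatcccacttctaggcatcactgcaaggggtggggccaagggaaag
In Cycs the matches do not overlap, and they begin 169, 60 and 17 bases before the start for TGACGTCA, GCATGCGC and TTACGTCA in that order. None of the 3 motifs lies in the Atp5d window, and the table puts Atp5d in the CRE_TATA class.

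Of 32 members with a promoter entry, 4 hold TGACGTCA (Cycs, Ndufa10, Mdh2 and Ogdh), where 1.77% of 27025 genes do in windows of the same length. TTACGTCA is held by 1 member (Cycs) and 0.525% of genes, and GCATGCGC by 4 members (Cycs, Ogdh, Sdhb and Cox6a1) and 2.56% of genes. These shares count every gene with a promoter entry, measured or not. The share among genes as bright as the members was not computed, so an excess in the members cannot be read from them. For comparison with Cycs, 60 bases around the match are shown for the others that hold TGACGTCA, at chr1:92473792-92473851 (minus strand) for Ndufa10, chr5:135778496-135778555 (plus strand) for Mdh2 and chr11:6291520-6291579 (plus strand) for Ogdh.
Ndufa10: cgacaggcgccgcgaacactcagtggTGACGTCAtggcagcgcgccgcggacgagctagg
Mdh2: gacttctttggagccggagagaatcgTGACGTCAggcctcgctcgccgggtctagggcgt
Ogdh: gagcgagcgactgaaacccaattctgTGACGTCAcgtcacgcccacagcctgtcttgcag
The matches begin 67, 127 and 51 bases before the start for Ndufa10, Mdh2 and Ogdh in that order. Forskolin differences of these genes were 0.12 for Ndufa10, 0.12 for Mdh2 (0.01 through its second set) and -0.01 for Ogdh, the E1 subunit of oxoglutarate dehydrogenase, beside 0.34 for Cycs. Ogdh read 1965 with forskolin and 1979 with vehicle. Mdh2 is classed as others in the authors' deposited table. These matches describe letters in a window and do not show binding.

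Regulators and other parts of the same machinery were measured beside the members. The list of 48 other subunits of complexes I, III, IV and V also counts Atpif1, an inhibitor of complex V. Of these, 46 were measured, none differed 1.5-fold after forskolin, and their median was -0.02. Ppargc1a, the coactivator that drives mitochondrial biogenesis, read 203.5 with forskolin and 111.5 with vehicle, 1.82-fold higher, though too dim to pass the level filter. Its other sets, dimmer still, were 2.29-fold and 2.26-fold higher with forskolin. Ppargc1b, a relative of Ppargc1a, read 207.5 with forskolin and 217 with vehicle. The factors through which PGC-1 proteins act on respiratory genes differed by 0.21 or less on the log2 scale. Nrf1 read 280.1 with forskolin and 317.5 with vehicle, Gabpa 477.6 with forskolin and 460 with vehicle, and Esrra 173.5 with forskolin and 149.8 with vehicle. Tfam, which packages and transcribes mitochondrial DNA, read 790.1 with forskolin and 901.9 with vehicle (-0.19).

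The uncoupling protein gene Ucp1 read 300.2 with forskolin, against 19.66 with vehicle, which is under the floor of 22.1 set on that array. With vehicle set to that floor, Ucp1 was 13.6-fold higher with forskolin, though too dim to pass the level filter. For this gene the authors' own fold was 15.3, with bounds of 10.6 and 26. Ucp2 read 330.9 with forskolin and 285.6 with vehicle, and Ucp3 read 116.1 with forskolin and 106.6 with vehicle. A second Ucp3 set read 210.8 with forskolin and 94.26 with vehicle, 2.24-fold higher, so the sets of this dim gene did not agree in size. Pyruvate dehydrogenase kinases switch pyruvate dehydrogenase off by phosphorylation. Pdk1 read 97.38 with forskolin and 159.8 with vehicle (-0.71), but 98.74 with forskolin and 60.92 with vehicle (0.70) through its second set. Pdk4 read 195.1 with forskolin and 164.6 with vehicle (0.25). Pdk2 read 133.7 with forskolin and 146 with vehicle, and Pdk3 read 280.1 with forskolin and 227.3 with vehicle. All 4 kinases were below the level filter in the cultures.

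The second comparison asked how the same genes stand in epididymal fat after the high fat diet. Within 1.5-fold of chow were 39 of the 42 members (92.9%), beside 57.7% of 7183 filtered genes. Within 0.32 on the log2 scale were 30 members (71.4%), beside 34.7% of filtered genes. Sdhd and Ogdh stood at least 1.5-fold higher under the high fat diet, where 27.9% of filtered genes were, and Pdha1 was at least 1.5-fold lower, where 14.4% were. Among genes at or above the 75th percentile of level, 56.2% were within 1.5-fold. In whole tissue, fewer cells of a type and less RNA per cell cannot be told apart.

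The median log2 difference was -0.03 for the members and 0.17 for filtered genes, with 20 members above 0 and 22 below. The sign of a small difference depended on how the arrays were scaled, since the high fat array was brighter. Quantile normalization put the members' median at -0.35 and that of filtered genes at -0.11, with 6 members above 0 and 36 below. Centring each array on the median of all genes gave -0.24 for members and -0.04 for filtered genes, with 9 members above 0 and 33 below. The members' median was below that of filtered genes by 0.20 as deposited, 0.24 after quantile normalization and 0.20 after centring. All directions below are those of the deposited scale.

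**Figure D3:**
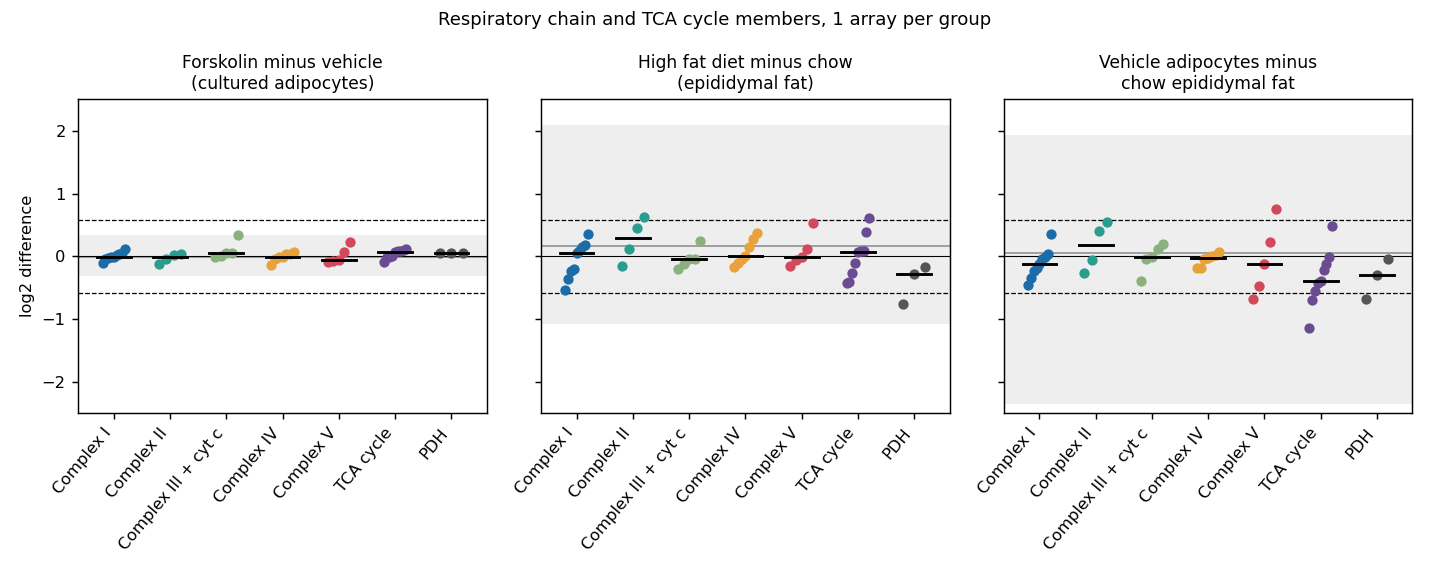
Log2 difference of each member (points) by complex in the 3 comparisons, with the group median as a thick bar, dashed lines at 1.5-fold, a grey line at the median of all filtered genes and a grey band over their 5th to 95th percentile. Members lie within 1.5-fold after forskolin and mostly so in the comparisons with fat, inside a much wider band of all genes.

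Complex II had the highest group median under the high fat diet, 0.28, with 3 of 4 members above 0. Sdhd, a membrane anchor of succinate dehydrogenase, read 2574 under the high fat diet and 1678 under chow, 1.53-fold higher on the diet. Its second probe set read 1032 under the high fat diet and 1085 under chow, so the 2 sets differed in direction. For the other membrane anchor, Sdhc, both sets were higher on the diet. They read 3192 under the high fat diet and 2342 under chow (0.45), and 2358 under the high fat diet and 1322 under chow (0.83). The catalytic subunits differed less through the sets used: Sdha read 3836 under the high fat diet and 4282 under chow (-0.16). The second bright Sdha set differed more, with 3512 under the high fat diet and 4715 under chow (-0.42). Sdhb read 5216 under the high fat diet and 4796 under chow (0.12).

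Complex I had a median of 0.05, with 5 of 9 members above 0. Ndufv1, the flavoprotein subunit that takes electrons from NADH, read 2150 under the high fat diet and 3134 under chow (-0.54). All 3 Ndufv1 probe sets were lower on the diet, by 0.54, 0.47 and 0.23 on the log2 scale. Its partner Ndufv2 read 3828 under the high fat diet and 3464 under chow (0.14), and its other 2 sets gave -0.09 and -0.16. Ndufs1, the largest subunit, read 1849 under the high fat diet and 1752 under chow (0.08). Ndufb9, an accessory subunit, read 4498 under the high fat diet and 5823 under chow (-0.37). Ndufs7 read 2940 under the high fat diet and 2312 under chow (0.35), but its second probe set went the other way, with 2343 under the high fat diet and 2817 under chow (-0.27).

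Complex III with cytochrome c had a median of -0.05, complex IV of 0.01 and complex V of -0.01, and none of their 17 members differed 1.5-fold. Uqcrb, a small subunit of complex III, read 9812 under the high fat diet and 10161 under chow. Uqcrc2, a core subunit, read 2926 under the high fat diet and 3030 under chow. Cycs read 4557 under the high fat diet and 5224 under chow (-0.20), although a second Cycs probe set went the other way, with 4235 under the high fat diet and 2950 under chow (0.52). Members of complex IV, whose nuclear subunits surround the catalytic core, lay between -0.17 and 0.37 through the sets used. A second bright Cox6c set gave -0.40. Cox6a1 read 8214 under the high fat diet and 8502 under chow. Cox7c read 5239 under the high fat diet and 4723 under chow. In complex V, Atp5b read 7991 under the high fat diet and 8352 under chow, and Atp5o, which links the stalk to the catalytic head, read 4665 under the high fat diet and 4310 under chow. Atp5a1, the alpha subunit, had the largest difference of these 17, 7385 under the high fat diet and 5112 under chow (0.53), where its second bright probe set gave 4953 under the high fat diet and 4828 under chow (0.04).

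The TCA cycle had a median of 0.07, with 5 of 9 members above 0 and differences in both directions. Ogdh read 2172 under the high fat diet and 1419 under chow, 1.53-fold higher on the diet, through 1 probe set. Idh2, the NADP-dependent mitochondrial isocitrate dehydrogenase, read 1775 under the high fat diet and 1355 under chow (0.39). On the low side, citrate synthase (Cs), which starts the cycle, read 3542 under the high fat diet and 4779 under chow (-0.43). Its other probe sets gave 0.51 and -0.15, so they did not share a direction. Idh3g, a regulatory subunit of the NAD-dependent isocitrate dehydrogenase, read 3695 under the high fat diet and 4909 under chow (-0.41). Mdh2 read 5018 under the high fat diet and 5397 under chow (-0.11).

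All 3 pyruvate dehydrogenase members were below 0, with a median of -0.28. Pdha1, the E1 alpha subunit and the target of the kinases, read 3539 under the high fat diet and 6024 under chow, 1.7-fold lower on the diet. Its second probe set read 1160 under the high fat diet and 720.5 under chow, 1.61-fold higher, so the direction for Pdha1 was not settled. Pdhb, the E1 beta subunit, read 2819 under the high fat diet and 3419 under chow (-0.28). Dlat, the E2 core, read 1212 under the high fat diet and 1367 under chow (-0.17). The mitochondrial pyruvate carrier genes, which feed the complex, were lower by less than 1.5-fold. Mpc1 read 3390 under the high fat diet and 4502 under chow (-0.41). Mpc2 read 4666 under the high fat diet and 5882 under chow (-0.33).

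Among the kinases, Pdk2 read 442.8 under the high fat diet and 1639 under chow (-1.89). Pdk3 read 409.2 under the high fat diet and 219.1 under chow (0.90), below the level filter. Pdk1 read 658.6 under the high fat diet and 737.8 under chow (-0.16), with -0.80 through its second set, and Pdk4 had no value on either fat array.

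In the authors' deposited table, both bounds lay beyond 1 for 28 members, 12 higher and 16 lower under the high fat diet. By the same measure 50.2% of filtered genes were higher and 30.6% lower. For the members named above, the authors' deposited table gives folds of 1.53 (bounds 1.38 and 1.73) for Sdhd and 1.53 (1.37 and 1.73) for Ogdh. The authors' deposited table gives Pdha1 as -1.7 (-1.58 and -1.83), where a minus sign marks a fold that is lower on the diet.

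Markers of other cell types differed between the fat arrays. Macrophage markers (12 of 12 measured) summed to 62944 under the high fat diet and 14559 under chow. Only 10 of the 12 had a value under chow, so the sums may cover unlike sets of genes. All 10 that could be compared were higher on the diet, with a median of 7.88-fold. Adipocyte markers summed to 60683 under the high fat diet and 72238 under chow, fibroblast markers to 45501 under the high fat diet and 33383 under chow, endothelial markers to 10647 under the high fat diet and 13269 under chow, and mesothelial markers (4 of 5 measured) to 994 under the high fat diet and 2140 under chow. None of these markers was at the floor on either fat array. Their part in the members' values was not tested.

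Other metabolic lists are given on the same deposited scale. Of 17 compared genes of branched-chain amino acid breakdown, 11 were at least 1.5-fold lower under the high fat diet and 1 was higher, with a median of -0.81. Hibch, an enzyme of valine breakdown, read 1033 under the high fat diet and 4340 under chow. Dbt, the E2 core of the branched-chain ketoacid dehydrogenase, read 456.9 under the high fat diet and 1366 under chow. Hsd17b10, an enzyme of isoleucine breakdown, read 1253 under the high fat diet and 3646 under chow.

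Fatty acid oxidation had a median of -0.11, with 1 gene at least 1.5-fold higher and 3 lower of 17 compared, where 27.9% of filtered genes were higher and 14.4% lower. Cpt1a, the liver-type carnitine palmitoyltransferase that admits fatty acids to mitochondria, read 2891 under the high fat diet and 690 under chow. Eci1, an enoyl-CoA isomerase, read 2106 under the high fat diet and 3638 under chow, and Cpt2, the inner membrane carnitine palmitoyltransferase, read 1540 under the high fat diet and 2505 under chow. Glycolysis had a median of 0.38, with 6 genes higher and 2 lower of 13. Pyruvate kinase (Pkm) read 5631 under the high fat diet and 1990 under chow, Pfkp, a phosphofructokinase, read 1910 under the high fat diet and 823.9 under chow, and hexokinase 2 (Hk2) read 972.1 under the high fat diet and 2097 under chow.

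**Figure D4:**
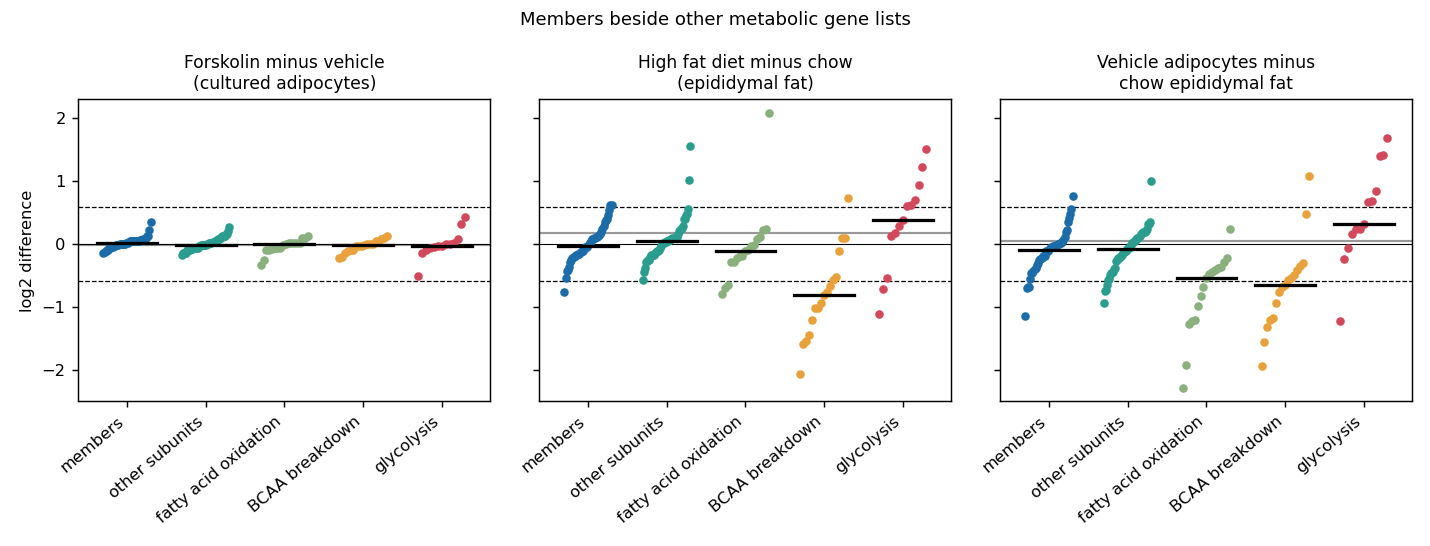
Log2 difference of each gene (points) for the 42 members, the other subunits of complexes I, III, IV and V, fatty acid oxidation, branched-chain amino acid (BCAA) breakdown and glycolysis, with list medians as thick bars, the median of filtered genes in grey and dashed lines at 1.5-fold. Under the high fat diet the medians are -0.03, 0.04, -0.11, -0.81 and 0.38 in that order.

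The other subunits of complexes I, III, IV and V had a median of 0.04 under the high fat diet. Of these 46, 2 were at least 1.5-fold higher and none lower, where 27.9% of filtered genes were higher and 14.4% lower. The 2 that were higher are listed under complex V, and of them only Atp5g1 encodes a subunit. Atpif1, which encodes an inhibitor of the ATPase activity of complex V, read 2959 under the high fat diet and 1011 under chow, although a second, dim set gave -0.04. Atp5g1, which encodes the c subunit of its membrane ring, read 1831 under the high fat diet and 911 under chow. Of the 8 other TCA genes, which include the cytosolic Idh1, Aco1 and Mdh1, 1 passed 1.5-fold: Suclg2, a beta subunit of succinyl-CoA ligase, read 582 under the high fat diet and 978 under chow.

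The tissue isoforms of complex IV were dimmer probe sets, all but Cox8b below the level filter. Cox8b, found in muscle and brown fat, read 891.6 under the high fat diet and 1143 under chow (-0.36), and Cox7a1, likewise, read 327.4 under the high fat diet and 250.9 under chow (0.38). Cox4i2 read 119.7 under the high fat diet and 201.2 under chow, Cox6a2 read 261.7 under the high fat diet and 172.3 under chow, and Cox6b2 read 74.61 under the high fat diet and 149.3 under chow. These 5 isoforms thus lay in both directions.

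Of 13 measured biogenesis regulators, 3 were at least 1.5-fold higher under the high fat diet and 3 lower. Of filtered genes, 27.9% were higher and 14.4% lower. Pprc1 read 618.6 under the high fat diet and 325.5 under chow (0.93). Nfe2l2 read 2794 under the high fat diet and 1844 under chow (0.60). Ppargc1a and Ppargc1b were lower on the diet. Ppargc1a read 99.6 under the high fat diet and 260.9 under chow (-1.39), below the level filter, with -1.33 and -1.07 through its other sets, and Ppargc1b read 498.4 under the high fat diet and 1002 under chow (-1.01). Nrf1 read 188.7 under the high fat diet and 86.85 under chow (1.12), also below the filter. Gabpa read 758.6 under the high fat diet and 806.5 under chow (-0.09), with 0.53 through its second set. Esrra read 378.1 under the high fat diet and 412.4 under chow, and Tfam 703 under the high fat diet and 693.1 under chow.

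Uncoupling proteins dissipate the proton gradient or carry metabolites across the inner membrane. Ucp2 read 6948 under the high fat diet and 1980 under chow (1.81). Ucp3 read 466.1 under the high fat diet and 866.2 under chow (-0.89), but its second set read 156.2 under the high fat diet and 118 under chow (0.41), so its direction was not settled. Ucp1 read 390.7 under the high fat diet and 20.09 under chow, which is under the floor of 25.08. With chow set to that floor, Ucp1 was 15.6-fold higher on the diet, below the level filter. For this gene the authors' own fold was 19.4, with bounds of 10.8 and 93.7.

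The third comparison set the vehicle-treated cultures against chow fat, since both lacked the treatment under study. Culture, depot, cell composition and array run cannot be told apart in it, and it shares 1 array with each of the other comparisons. Within 1.5-fold were 37 of the 42 members (88.1%), beside 44.2% of 7374 filtered genes. Only Atp5a1 was at least 1.5-fold higher in vehicle cultures, where 29.0% of filtered genes were, and 4 members were at least 1.5-fold lower (Cs, Idh3g, Atp5o and Pdha1), where 26.8% were. The members' median was -0.09, with 12 above 0 and 30 below, and that of filtered genes was 0.05. The scaling set this sign, for the members' median was -0.34 after quantile normalization (5 above 0, 37 below) and 0.16 after centring (29 above, 13 below).

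The TCA cycle had the lowest group median in vehicle cultures, -0.39, with 8 of 9 members below 0. Cs read 2175 in vehicle cultures and 4779 in chow fat (-1.14), with 0.83 and -0.61 from its other probe sets. Idh3g read 3031 in vehicle cultures and 4909 in chow fat (-0.70), and its second set gave -0.32. Idh2 read 922.8 in vehicle cultures and 1355 in chow fat (-0.55). Ogdh was the exception with 1979 in vehicle cultures and 1419 in chow fat (0.48). The 8 other TCA genes had a median of -0.39 too, and Idh1, the cytosolic isocitrate dehydrogenase, read 1050 in vehicle cultures and 2903 in chow fat.

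The complexes were closer to chow fat through the set used for each gene. Medians were -0.12 for complex I, 0.18 for complex II and -0.02 for complex III with cytochrome c. Complex IV was at -0.03 and complex V at -0.12. Through these sets, all 7 complex IV members lay between -0.19 and 0.06. Other bright sets gave -0.92 for Cox6c, -0.48 for Cox5b and -0.42 for Cox5a, but 0.30 for Cox6a1. Outside complex IV, other bright sets gave -0.98 for Sdha and -0.65 for Uqcrc2, but 0.98 for Sdhc. In complex V, Atp5a1 read 8646 in vehicle cultures and 5112 in chow fat (0.76), but -0.35 through its second bright probe set. Atp5o read 2668 in vehicle cultures and 4310 in chow fat (-0.69). In complex II, Sdhd read 2456 in vehicle cultures and 1678 in chow fat (0.55), but -0.93 through its second set. Pyruvate dehydrogenase had a median of -0.30, in which Pdha1 read 3760 in vehicle cultures and 6024 in chow fat (-0.68), while its second set read 2773 in vehicle cultures and 720.5 in chow fat (1.94).

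Beside the members, 8 of 17 compared fatty acid oxidation genes were at least 1.5-fold lower in vehicle cultures and none higher (median -0.54), where 26.8% of filtered genes were lower. Of 46 other subunits of complexes I, III, IV and V, 4 were lower and 1 was higher (median -0.07). Of 13 measured biogenesis regulators, 3 were at least 1.5-fold higher in vehicle cultures and 5 lower, beside 29.0% and 26.8% of filtered genes. Ppargc1b read 217 in vehicle cultures and 1002 in chow fat, and Esrra 149.8 in vehicle cultures and 412.4 in chow fat. Higher in vehicle cultures were Pprc1, with 1214 against 325.5 in chow fat (1.90), and Nrf1, with 317.5 against 86.85 (1.87). The second, dim Nrf1 set gave -0.11. Of 16 mitochondrial membrane and carrier genes, 5 were higher and 3 lower. Pdk2 read 146 in vehicle cultures and 1639 in chow fat. Ucp2 read 285.6 in vehicle cultures and 1980 in chow fat, and Cox8b read 241.9 in vehicle cultures and 1143 in chow fat. Endothelial markers summed to 855 in vehicle cultures and 13269 in chow fat, with all 8 lower. Fibroblast markers summed to 5894 in vehicle cultures and 33383 in chow fat. Macrophage markers summed to 5114 in vehicle cultures (12 genes) and 14559 in chow fat (10 genes), so these sums cover unlike sets of genes. At the floor in vehicle cultures were 3 of 12 macrophage and 2 of 8 endothelial markers. The part of these cells in the members' values was not tested.

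How far a member's value can be read depends on its probe sets. Of the 42 members, 24 had 2 or more bright probe sets. Their median gap on the log2 scale was 0.07 for forskolin, 0.27 for diet and 0.49 for culture against fat, beside 0.11, 0.38 and 0.72 over 1404 genes with several bright sets. The sets agreed in sign for 13 members with forskolin (54.2%), 13 with diet (54.2%) and 11 with culture (45.8%), beside 55.8%, 69% and 58.5% of those 1404 genes. The gap passed 1.5-fold for 0 members with forskolin, 5 with diet and 8 with culture, and reached 1.45 and 2.62 for Pdha1 in the last pair of comparisons. Ndufv1, Sdhc and Idh3g kept 1 direction across their sets on the diet, whereas Pdha1, Cs, Sdhd, Cycs and Ndufs7, the 5 with a gap past 1.5-fold, did not.

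**Figure D5:**
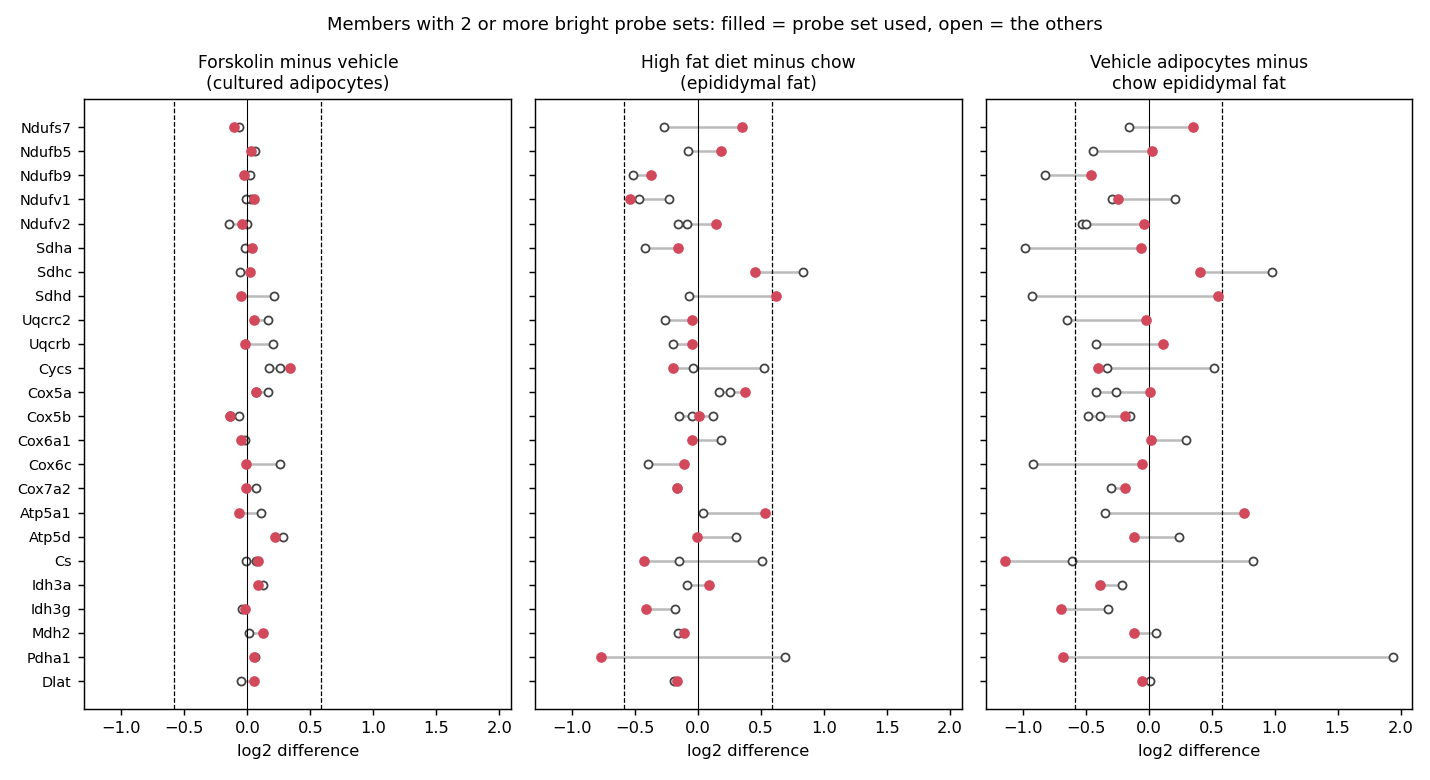
Log2 difference of every bright probe set (points, filled for the set used) for the 24 members with 2 or more, in the 3 comparisons, with dashed lines at 1.5-fold. Sets of a gene lie close together for forskolin and spread most for vehicle cultures against chow fat, where Pdha1 spans -0.68 to 1.94.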

How the data were processed

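Each array gave an intensity per probe set, deposited by the authors on a linear scale. Per the labels' protocols, total RNA was labelled with biotin by Affymetrix procedures, while the sources used here do not give the software, background correction and normalization. The second table deposited by the authors repeats the intensities and adds, per the file headers, a signed fold change (a score) with 2 bounds, and a CRE class.

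Intensities were floored at each array's 10th percentile and turned to log2. Probe sets were named by gene ID through RefSeq (GRCm38.p6, names only): 20834 matched by ID, 42 by symbol and 183 by synonym, 316 kept the table's own symbol, 769 had no gene and 482 had several. Each gene was read through the probe set of highest mean log2 level, among those with the most values. A difference is the log2 value of the first group named minus the second. Counts used 1.5-fold. Empty cells (74 with forskolin, 99 with vehicle, 176 under the high fat diet and 271 under chow) were left out.

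Named in full were the 8 members with the largest difference in each comparison and the brightest and dimmest of each group. From other lists, up to 3 genes past 1.5-fold were named as a rule. Kinases, complex IV isoforms, uncoupling proteins and 6 regulators were named whatever their value, though not in every comparison. Outside this rule, Mpc1, Mpc2 and Cox15 were named without passing 1.5-fold, and the carrier list gave more than 3 genes. Members and lists were chosen with earlier results of these data known. Alternatives were quantile normalization, centring, adding 16 before log2, other probe-set rules, a log2 threshold of 0.32 (a ratio of 5 to 4), a fold of 2, other level filters and the authors' folds. Python 3.11.15, numpy 2.4.6, pandas 2.3.3 and matplotlib 3.10.9 were used, and the steps were tested on simulated data.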

Additional observations from a re-analysis of the deposited data

How the results depend on the processing

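With forskolin, counting all 85 probe sets gave 1 higher and 1 lower, and a log2 threshold of 0.32 gave 1 higher. Under the high fat diet, the members higher and lower, 2 and 1 as reported, became 0 and 8 with quantile normalization, 0 and 4 with centring, 4 and 6 over 85 probe sets, 0 and 0 at a fold of 2, and 7 and 5 at a log2 threshold of 0.32, while the median over probe sets gave 2 lower. In vehicle cultures against chow fat, 1 and 4 became 0 and 11 with quantile normalization, 5 and 1 with centring, 4 and 16 over 85 probe sets, 0 and 1 at a fold of 2, and 5 and 11 at a log2 threshold of 0.32, while the median over probe sets gave 2 higher. That median also turned Atp5a1 to -0.35 and Pdha1 to 0.63 in this comparison, and moved Pdha1 on the diet to -0.04. Fewer or more calls at another fold follow from the threshold itself; for the other changes the cause was not tested. The other 47 of these counts and medians stayed within 1.5 times or the gap between probe sets. Among values of single genes and background shares, 843 stayed within that gap, 15 moved and 2 reversed. The authors' folds exist for forskolin and diet only. No paired analysis was possible because each group held 1 array. With 1 array per group, none of these settings bears on variation between cultures or mice, and dim probe sets near the floor have uncertain folds.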

Other observations

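Genes that build the respiratory complexes and carry metabolites across the mitochondrial membranes were measured beside the members. Of 12 assembly factors, 2 stood at least 1.5-fold higher under the high fat diet and none was lower, where 27.9% of filtered genes were higher and 14.4% lower. Sdhaf2, which helps attach FAD to complex II, read 1105 under the high fat diet and 655.3 under chow (0.75), with 0.34 through its second probe set. Ndufaf3, a complex I assembly factor, read 568.6 under the high fat diet and 351.6 under chow. Of 16 membrane and carrier genes, 6 were higher and 2 lower, among them the 3 uncoupling proteins. Vdac2, an outer membrane channel, read 5798 under the high fat diet and 2751 under chow. Slc25a11, the oxoglutarate carrier, read 2277 under the high fat diet and 1087 under chow. Slc25a10, the dicarboxylate carrier, read 2229 under the high fat diet and 1159 under chow (0.94). Its second set read 911.9 under the high fat diet and 130.7 under chow (2.80), so the sets differed in size. Prohibitin (Phb) read 1891 under the high fat diet and 943 under chow, but 634.4 under the high fat diet and 666.5 under chow (-0.07) through its second set.

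After forskolin, Cox15, which makes the heme A of complex IV, read 877.8 with forskolin and 1263 with vehicle (-0.53). Its other 3 probe sets gave 0.27, 0.02 and -0.02, so a difference of this size was seen in 1 of 4 sets.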
